A study of Mus musculus with 6 samples.

Results

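C1q macrophages of mouse lymph nodes were divided by the amount of CD169 antibody bound to each cell, and the mRNA of antibody-high and antibody-low cells from the same mouse was compared. A cell was taken as a C1q macrophage when C1qa, C1qb and C1qc together gave at least 10 unique molecular identifiers (UMIs, single counted mRNA molecules) and the lymphocyte genes Cd3e and Cd79a gave 0. Of 18662 barcodes, 12139 passed the filters on mitochondrial mRNA, on barcode sequences shared by the captures and on hashtag purity, and 2407 of these were C1q macrophages. CD169 antibody counts of at least 10 defined 442 CD169-high cells, counts of at most 3 defined 1001 CD169-low cells, and the 964 cells between these limits entered no test. The antibody count, the C1q genes, Cd3e, Cd79a, the mitochondrial genes and the hashtags therefore chose the cells, and none of them is reported below as a test result. The C1q and mitochondrial genes were not taken out of the gene fits and may count among the genes tested.

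The cells came from the inguinal lymph nodes of 4 CD169Tom mice on a C57BL/6J background, all over 6 weeks of age, of which 2 were unimmunized and 2 had been immunized 9 days earlier. All 4 mice, controls included, carried Cre in 1 copy of Siglec1, the gene encoding CD169, together with a Cre-dependent tdTomato reporter, so that any cell that had once expressed Siglec1, and its progeny, was red. The cells of each mouse were stained with their own hashtag antibody, red CD11b+ cells (high in CD11b by the labels) were sorted and pooled, and the pool was run as 2 captures by CITE-seq, which reads mRNA and DNA-tagged antibodies from the same cells. The antigen, and the sex of each mouse, were not given in the sources used here, and no mouse with both Siglec1 copies intact was compared. The mice are called unimmunized mouse 1 and 2 (hashtags 1 and 2) and immunized mouse 1 and 2 (hashtags 3 and 4).

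CD169, or sialoadhesin, is a lectin that binds sialic acid on other cells, vesicles and viruses, and it is the classical surface marker of the macrophages that line the subcapsular and medullary sinuses of lymph nodes. C1q is the recognition molecule of the classical complement pathway, is made by tissue macrophages, and coats apoptotic debris. An antibody count reports protein on the cell, whereas a transcript count reports the mRNA within the droplet, and both were available for CD169 in the same cells.

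The antibody signal was read from short DNA tags, which are shown because every division of cells below rests on telling them apart. Each tag has 15 bases, is given from 5′ to 3′ as deposited, and is in capitals where it carries the same base as the CD169 tag at the same position.
CD169: ATTGACGACAGTCAT
CD68: cTTtctttCAcggga
F4/80: tTaacttcagccCgT
CD11c: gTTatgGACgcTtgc
Ly-6C: AagtcgtgagGcatg
Ly-6G: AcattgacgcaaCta
Hashtag 3: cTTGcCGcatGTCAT
Among the other 5 antibodies, CD11c shared the most positions with CD169, with 6 of 15, and so differed from it at 9. Hashtag 3, carried by immunized mouse 1, was the nearest of the 4 hashtags and differed from the CD169 tag at 5 positions. The remaining hashtags differed from it at 10 to 12 positions.

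The share of C1q macrophages that were CD169-high differed widely among the mice. It was 78.3% of 157 cells in unimmunized mouse 1 (exact 95% binomial confidence interval 71.1 to 84.5) and 59.5% of 42 cells in unimmunized mouse 2 (43.3 to 74.4). In immunized mouse 1 it was 25.05% of 547 cells (21.5 to 28.9), and in immunized mouse 2 it was 9.45% of 1661 cells (8.09 to 10.96). Both immunized mice thus lay below both unimmunized mice, at 17.2% ± 11.03 against 68.9% ± 13.3 (SD, n = 2 mice each). The difference was -51.7 percentage points and ranged from -63.9 to -42.3 over the alternatives tried. It is a description, since the antibody count also chose the cells. The median CD169 count per C1q macrophage was 35, 13.5, 5 and 4 in unimmunized mice 1 and 2 and immunized mice 1 and 2. C1q macrophages were also a different part of the sorted cells, making up 5.55% and 7.82% of the kept cells in the unimmunized mice and 13.5% and 35.2% in the immunized mice. Intervals here and below cover counting error only.

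**Figure D1:**
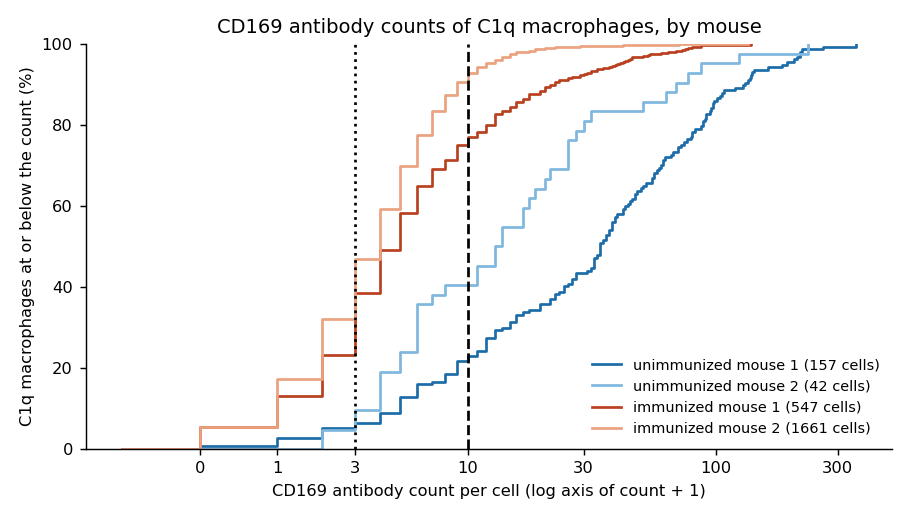
Cumulative share of C1q macrophages (vertical axis, percent) at or below each CD169 antibody count (horizontal axis, log scale) for each of the 4 mice, with the limits of 3 (dotted) and 10 (dashed) counts. The curves of the immunized mice rise mostly to the left of 10 counts and those of the unimmunized mice mostly to the right, with medians of 4 and 5 against 13.5 and 35.

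The counts formed a continuum with no gap at either limit. There were 332 cells at exactly 3 counts and 274 at 4, and 76 at 9 and 51 at 10. Pooled over mice, Siglec1 mRNA was 26.0 and 39.0 CPM at 3 and 4 counts (the UMIs of a gene per 1000000 UMIs of the summed cells), and 25.3 and 29.6 CPM at 9 and 10 counts. The sinus lectin gene Cd209b was 3.17 and 5.76 CPM at 3 and 4 counts, and 5.72 and 117 CPM at 9 and 10 counts.

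Unimmunized mouse 1 stood apart, and the number of CD169-low cells limited both unimmunized mice. The CD169-high cells of unimmunized mouse 1 had a median of 2423 UMIs against 9849 in its CD169-low cells, whereas the medians were 9201 and 9630.5 in unimmunized mouse 2, 9043 and 11545 in immunized mouse 1, and 16454 and 13996 in immunized mouse 2. Over the 4 mice the log2 ratio of median UMIs was -0.55 ± 1.01 (SD), with p = 0.375 in a two-sided exact sign-flip test. Unimmunized mouse 1 supplied 123 CD169-high and 10 CD169-low cells, immunized mouse 1 supplied 137 and 210, and immunized mouse 2 supplied 157 and 777. Unimmunized mouse 2 had 25 CD169-high cells but 4 CD169-low cells, below the minimum of 10 cells per library. Its values are printed but do not enter the fits that compare the classes. Gene tests between the classes therefore compared 6 summed libraries of 3 mice, holding 417 CD169-high and 997 CD169-low cells. Summed libraries held from 90833 to 11169406 UMIs, and 1 UMI was worth 11.01 CPM in the smallest, the CD169-low cells of unimmunized mouse 1, so that a value of 0 there allowed up to 33.03 CPM.

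Macrophage genes were checked before the classes were compared. This does not exclude monocyte features in either class, since the classical monocyte genes are not reported here. Csf1r, the receptor for the macrophage growth factor CSF1, was 352 and 683 CPM in the CD169-high and CD169-low cells of unimmunized mouse 1, 399 and 416 in unimmunized mouse 2, 424 and 476 in immunized mouse 1, and 461 and 477 in immunized mouse 2. It was thus present in all 8 libraries and lower in the CD169-high cells of each mouse, most of all in unimmunized mouse 1. It did not pass the test (log2 fold change -0.32, edgeR adjusted p = 0.914). Of 12 pan-macrophage genes, 12 were tested, none was called by edgeR at the adjusted threshold of 0.05 (1 higher and 2 lower at an unadjusted p under 0.05), and their median log2 fold change was 0.02, beside 0.01 for all 8800 genes tested. Mertk, a receptor for the uptake of apoptotic cells, had a log2 fold change of 0.05.

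Siglec1 mRNA did not pass the test between the antibody classes. It was 32.5 CPM in CD169-high and 44.0 CPM in CD169-low cells of unimmunized mouse 1, 26.3 and 0 in unimmunized mouse 2, 18.8 and 13.2 in immunized mouse 1, and 32.5 and 27.3 in immunized mouse 2. The classes overlapped, with means of 27.9 ± 7.91 and 28.2 ± 15.4 CPM (SD, n = 3 fitted mice). The fitted log2 fold change of CD169-high over CD169-low cells was 0.26 with a standard error of 0.22 (edgeR quasi-likelihood test with the mouse as a block, Benjamini-Hochberg adjusted p = 1.00), and it stayed between 0.14 and 0.41 under every alternative, never past the threshold. Few UMIs stood behind these values, with 24 and 4 in unimmunized mouse 1, 28 and 32 in immunized mouse 1, and 89 and 305 in immunized mouse 2. Siglec1 lies on mm10 chr2:131069220-131086765, on the reverse strand.

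The share of cells with any Siglec1 UMI was compared next. After each cell was thinned to 2000 UMIs, 23 of 386 CD169-high cells (5.96%) and 45 of 997 CD169-low cells (4.51%) held a Siglec1 UMI, and 56 and 4 shallower cells were left out. Lymphoid cells, taken as those with at least 3 UMIs of Cd3e and Cd79a together and no C1q UMI, had passed the same sort for red cells. In these it was 5 of 746 (0.670%). Without thinning, 21.0%, 23.4% and 2.80% of the cells held one, and the median depths of these 3 sets were 11104, 13538 and 6152 UMIs. By mouse, the thinned share was 4% of CD169-high and 0 of 9 CD169-low cells in unimmunized mouse 1, 8.70% and 0 of 4 in unimmunized mouse 2, 3.82% and 5.31% in immunized mouse 1, and 8.92% and 4.76% in immunized mouse 2. The 0 of 9 and 0 of 4 CD169-low cells of the unimmunized mice were too few to give a direction. The thinned share was lower in the CD169-high cells of immunized mouse 1 and higher in those of immunized mouse 2. This difference was not tested.

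Siglec1 was also followed over 5 bins of the antibody count. In immunized mouse 2 it was 27.4 CPM at 0 to 1 counts, 27.2 at 2 to 3, 35.3 at 4 to 9, 33.1 at 10 to 19 and 29.2 at 20 and more. In immunized mouse 1 the values were 5.01, 17.3, 19.1, 30.6 and 8.73 CPM, with the lowest and the second-lowest at the ends. Cd209b behaved differently over the same bins, with 0.256, 0.413, 3.32, 7.30 and 12.2 CPM in immunized mouse 2 and 21.3, 17.3, 47.6, 434 and 233 CPM in immunized mouse 1.

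**Figure D2:**
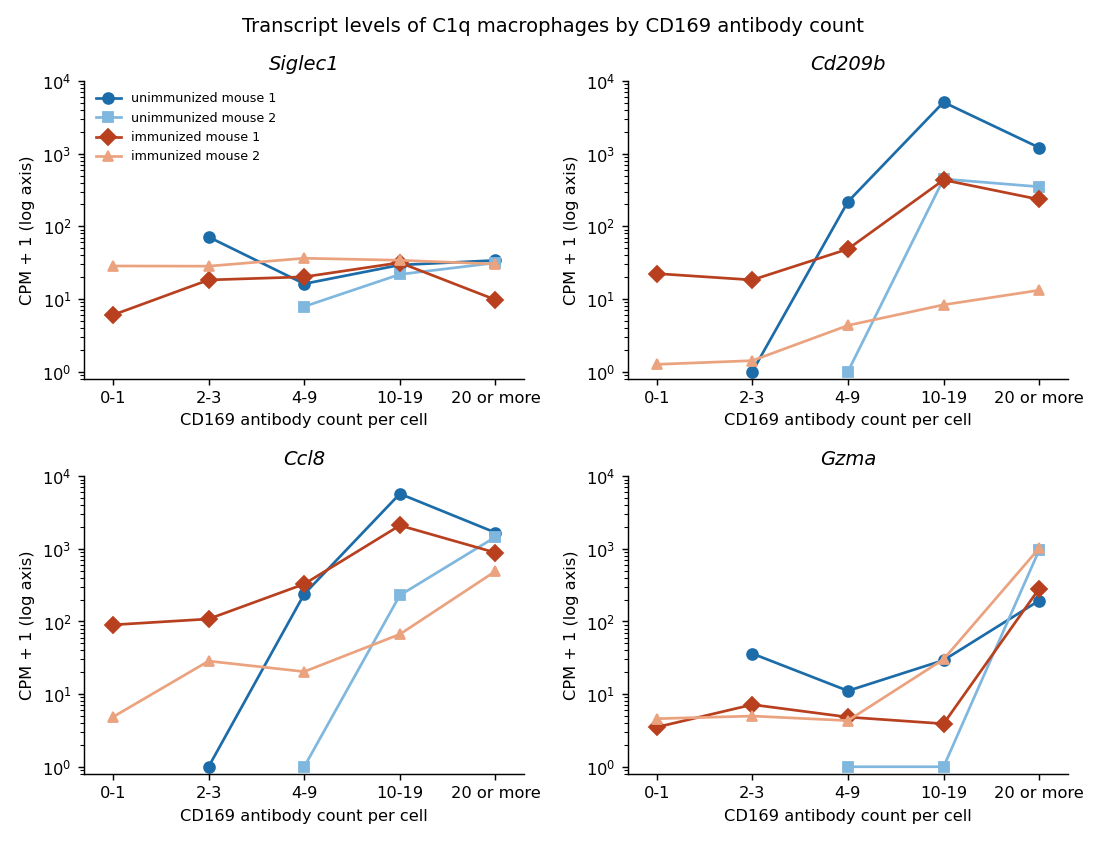
Summed level (CPM + 1, log scale) of Siglec1, Cd209b, Ccl8 and Gzma in C1q macrophages grouped by CD169 antibody count (horizontal axis, bins of 0 to 1, 2 to 3, 4 to 9, 10 to 19 and 20 or more counts), with 1 line per mouse and bins of fewer than 5 cells left out. Siglec1 stays between 5.01 and 35.3 CPM in the immunized mice, Cd209b and Ccl8 are higher at 10 and more counts, and Gzma is highest at 20 and more counts.

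The tdTomato transcript, listed as Tomato, was close to the detection limit in these cells. It was 6.78 CPM in CD169-high and 0 in CD169-low cells of unimmunized mouse 1, 0 and 0 in unimmunized mouse 2, 6.72 and 6.61 in immunized mouse 1, and 4.75 and 5.37 in immunized mouse 2. The classes overlapped, and the log2 fold change was -0.06 with a standard error of 0.42 (edgeR adjusted p = 1.00).

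Across all genes, the CD169-high cells differed from the CD169-low cells mostly upwards. Of 8800 genes tested, 84 rose (0.955%) and 4 fell (0.0455%) at an edgeR adjusted p under 0.05, 1.00% in all, and 530 had an unadjusted p under 0.05, 372 of them higher (4.23%). The fit had 2 residual degrees of freedom, so the variance of each gene was estimated partly from the other genes. The filter on low counts could pass a gene through its CD169-high libraries alone. Counts of rises among the tested genes of a list, given below, are therefore a description. Of the 84 genes that rose, 81 were higher in each of the 3 fitted mice, whose values chose these genes. In unimmunized mouse 2, which was not in the fit, 70 of the 84 were also higher. Its CD169-low library held 4 cells, in which 1 UMI was worth 24.5 CPM, so a gene of low level easily read 0 there. The share of all tested genes that were higher in that mouse is not given, so the 70 are a description. The ratio was largest in unimmunized mouse 1 for 61 of the 84 and smallest in immunized mouse 2 for 70, and 49 of the 84 were at 0 in the 10 CD169-low cells of unimmunized mouse 1. Without unimmunized mouse 1 there were 76 calls, 66 of them among the 88, without immunized mouse 1 there were 47, with 44 shared, and without immunized mouse 2 there were 165, with 77 shared. Capture 1 alone gave 33 calls and capture 2 alone 76, both from the immunized mice alone.

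**Figure D3:**
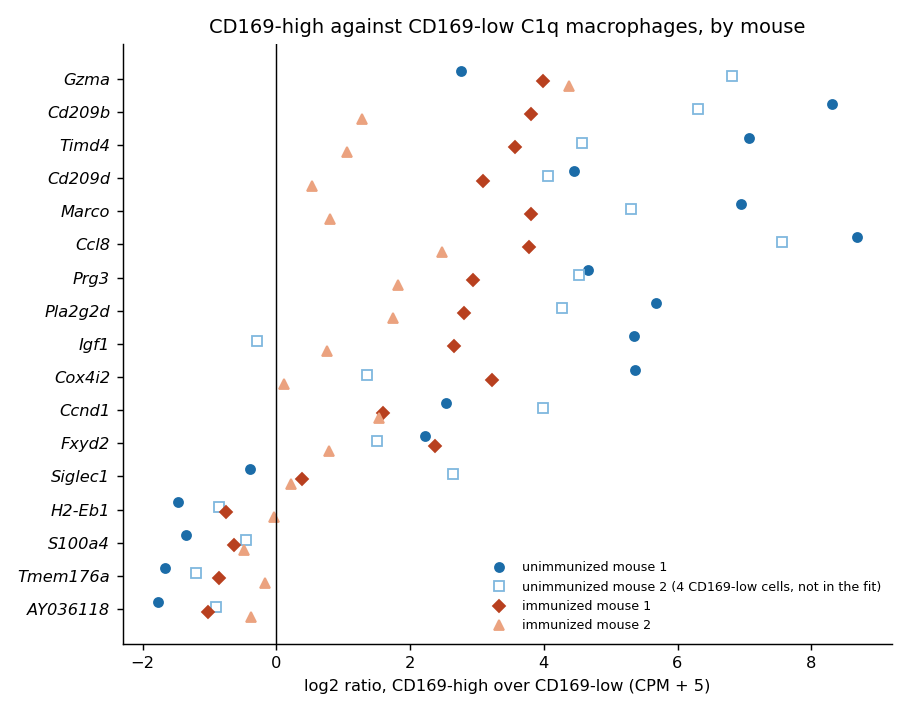
Log2 ratio of CD169-high to CD169-low cells (5 CPM added to both) in each mouse for the 12 named genes that rose, Siglec1 and the 4 genes that fell. Filled points are the 3 fitted mice and hollow squares are unimmunized mouse 2, which was not in the fit. Siglec1 lies around 0 in the fitted mice and above 0 in unimmunized mouse 2, whose 4 CD169-low cells held no Siglec1 UMI. Among the rises, most ratios of immunized mouse 2 lie nearest to 0.

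Genes of sinus macrophages were among the rises. Of 14 listed sinus macrophage genes 8 were tested, of which 4 rose and none fell, and their median log2 fold change was 1.33. Of all genes tested 0.955% rose, and the filter described above makes this list count a description. Cd209b encodes SIGN-R1, a lectin that captures microbial polysaccharides in marginal zone and medullary macrophages. It was 1583 CPM in CD169-high and 0 in CD169-low cells of unimmunized mouse 1, 390.5 and 0 in unimmunized mouse 2, 326 and 18.6 in immunized mouse 1, and 8.03 and 0.358 in immunized mouse 2. CD169-high cells were higher within every mouse, although those of immunized mouse 2 lay below the CD169-low cells of immunized mouse 1. Cd209b rose by a log2 fold change of 4.53 with a standard error of 0.31 (edgeR adjusted p = 2.05e-09). In immunized mouse 2 the CD169-high value rested on 22 Cd209b UMIs in 7 cells.

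Marco, a scavenger receptor for bacteria and particles, was 613 and 0 CPM in unimmunized mouse 1, 193 and 0 in unimmunized mouse 2, 332 and 19.01 in immunized mouse 1, and 5.11 and 0.806 in immunized mouse 2. It was higher in the CD169-high cells of each mouse, and the log2 fold change was 4.02 with a standard error of 0.30 (edgeR adjusted p = 6.67e-09). In immunized mouse 2 the CD169-high value rested on 14 Marco UMIs in 3 cells, 11 of them in 1 cell. Timd4 encodes TIM-4, a receptor for phosphatidylserine on apoptotic cells and a marker of resident macrophages. Its values were 668 and 0 CPM in unimmunized mouse 1, 114 and 0 in unimmunized mouse 2, 153 and 8.26 in immunized mouse 1, and 6.57 and 0.537 in immunized mouse 2, again with CD169-high cells higher in each mouse. The log2 fold change of Timd4 was 4.29 with a standard error of 0.30 (edgeR adjusted p = 2.88e-09).

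The fourth sinus gene, Cd5l, a secreted scavenger protein of resident macrophages, rose by 2.12 with a standard error of 0.41 on the log2 scale (edgeR adjusted p = 0.00414). It did so in unimmunized mouse 1, at 42.0 and 0 CPM, and in immunized mouse 1, at 96.0 and 13.2 CPM, and was lower in CD169-high cells of immunized mouse 2, at 1.10 and 2.06 CPM. Cd209d, a lectin gene next to Cd209b and counted with the scavenger receptors and lectins, rose by 4.06 with a standard error of 0.36 (edgeR adjusted p = 8.9e-08), with 346 and 11.01 CPM in unimmunized mouse 1, 58.4 and 2.48 in immunized mouse 1 and 2.92 and 0.448 in immunized mouse 2. In immunized mouse 1, 3 cells held 77.0% of the Cd209d UMIs of CD169-high cells. In immunized mouse 2 all 8 such UMIs came from 1 cell. The Cd209 genes resemble each other in sequence, and reads shared among them may be split or lost in counting. Cd209f and Cd209g were too rare to test. They held UMIs in 18 and 10 of the 123 CD169-high cells of unimmunized mouse 1, whose 10 CD169-low cells held none, which allows a share of up to 30%, and Cd209f in 2 of the 137 CD169-high cells of immunized mouse 1, whose 210 CD169-low cells held none, which allows up to 1.43%. No C1q macrophage in either class of the other two mice held a UMI of these genes. Of the 20 lectin and scavenger receptor genes tested, 4 rose (Marco, Cd209a, Cd209b and Cd209d) and none fell, with a median of -0.02. Cd209a was found in 13 CD169-high cells of the fitted mice, and 3 cells held 76.9% of its UMIs there.

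Sinus transcripts were found in part of the CD169-high cells, and in a different part in each mouse. A UMI of any of 5 sinus genes (Timd4, Marco, Cd209b, Cd209f and Cd209g) was present in 109 of 123 CD169-high cells of unimmunized mouse 1 (88.6%, exact 95% interval 81.6 to 93.6) and in 0 of its 10 CD169-low cells, which allows a share of up to 30%. In unimmunized mouse 2 it was 11 of 25 (44%, 24.4 to 65.1) against 0 of 4. In immunized mouse 1 it was 52.6% (43.9 to 61.1) of CD169-high and 8.57% (5.16 to 13.2) of CD169-low cells, and in immunized mouse 2 it was 10.8% (6.44 to 16.8) and 1.93% (1.08 to 3.16). The lymphoid cells without C1q UMIs defined above, which had passed the same sort, held such a UMI in 9.66% of cells of immunized mouse 1. In immunized mouse 2 it was 8.20% (2.72 to 18.1), and their median depth was 6152 UMIs over all mice. The share in CD169-high cells of immunized mouse 2 lay within that last interval. That of its CD169-low cells, 1.93%, lay below the interval at a greater median depth of 13996 UMIs. The lymphoid cells therefore set no background level for these shares.

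Removing every cell with a UMI of these 5 genes left 58 calls, of which 45 were shared with the 88, and 50 were rises. Ccl8, Prg3, Pla2g2d and Il22ra2 kept log2 fold changes of 2.75, 3.12, 2.48 and 4.59 in those cells, and Selenop had 0.61. Siglec1 was then at 0.27.

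Secreted factors formed another group of rises. Of 23 chemokine genes measured 15 were tested, 5 rose, none fell, and the median was 0.39. Ccl8, a chemokine that attracts monocytes and other leukocytes, was 2061 and 0 CPM in CD169-high and CD169-low cells of unimmunized mouse 1, 939 and 0 in unimmunized mouse 2, 1447 and 101.2 in immunized mouse 1, and 129.6 and 19.2 in immunized mouse 2. CD169-high cells were higher in each mouse and the libraries of the classes did not overlap. The log2 fold change of Ccl8 was 3.62 with a standard error of 0.30 (edgeR adjusted p = 3.67e-08). A Ccl8 UMI was held by 177 of the 417 CD169-high cells and 62 of the 997 CD169-low cells. In immunized mouse 2, 3 cells held 79.4% of the Ccl8 UMIs of CD169-high cells. The call was lost by DESeq2 (adjusted p = 0.307). It was also lost by edgeR with cells ranked by a centred log ratio of the antibody (adjusted p = 0.0877) and without the mouse block (adjusted p = 0.238).

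The other 4 chemokines rested on few cells. Cxcl2 and Ccl4, both neutrophil or leukocyte attractants, rose by 2.26 and 1.35 (edgeR adjusted p = 0.00165 and 0.0107), and 74.4% and 74.6% of their UMIs in the CD169-high cells came from 3 cells. Ccl4 was -0.20 in capture 2 alone and -1.22 when cells were ranked within each mouse by a centred log ratio of the antibody. Ccl7 rose by 1.48 (adjusted p = 0.00251, edgeR), with 41.2% of its UMIs in 3 cells. Pf4, platelet factor 4, rose by 1.64 (adjusted p = 0.0121, edgeR) with 51.2% in 3 cells, and it was lower in the CD169-high cells of unimmunized mouse 1, at 9.49 against 44.0 CPM.

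Pla2g2d, a secreted phospholipase of resident macrophages and dendritic cells, was 252 and 0 CPM in unimmunized mouse 1, 92.1 and 0 in unimmunized mouse 2, 156 and 18.2 in immunized mouse 1, and 21.9 and 3.04 in immunized mouse 2. The printed values did not overlap, but the 0 of unimmunized mouse 1 allowed up to 33.03 CPM, above the 21.9 of immunized mouse 2. Pla2g2d rose by 3.08 with a standard error of 0.24 (edgeR adjusted p = 1.27e-08). Igf1, insulin-like growth factor 1, was 199 and 0 CPM in unimmunized mouse 1, 118 and 14.5 in immunized mouse 1 and 6.94 and 2.06 in immunized mouse 2, and it rose by 2.73 with a standard error of 0.30 (edgeR adjusted p = 2.77e-06). In unimmunized mouse 2 Igf1 was 79.0 and 97.9 CPM, the latter from 4 cells.

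Prg3, a proteoglycan gene better known from eosinophils, was 122 and 0 CPM in unimmunized mouse 1, 109.7 and 0 in unimmunized mouse 2, 84.6 and 6.61 in immunized mouse 1, and 21.9 and 2.60 in immunized mouse 2. The printed values did not overlap, but the 0 of unimmunized mouse 1 allowed up to 33.03 CPM, above the 21.9 of immunized mouse 2. The log2 fold change of Prg3 was 3.38 with a standard error of 0.27 (edgeR adjusted p = 1.27e-08). Ccnd1, a cyclin of the G1 phase, was 88.1 and 11.01 CPM in unimmunized mouse 1, 53.7 and 14.5 in immunized mouse 1 and 37.2 and 9.49 in immunized mouse 2, and it rose by 1.96 with a standard error of 0.22 (edgeR adjusted p = 2.82e-06). Of 16 cell division genes tested none passed the edgeR threshold (2 higher at an unadjusted p under 0.05). Fxyd2, a regulator of the sodium pump, and Cox4i2, an isoform of a respiratory chain subunit, rose by 1.84 and 2.18 (edgeR adjusted p = 5.47e-05 and 0.00599).

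Some called genes outside the rule for named genes are added here, chosen after their values were seen. Il22ra2 encodes the soluble binding protein that neutralises interleukin 22. It was 122 and 0 CPM in unimmunized mouse 1 and 61.4 and 0 in unimmunized mouse 2. In immunized mouse 1 it was 64.5 and 0.413 CPM, and in immunized mouse 2 it was 18.6 and 1.16. The printed values did not overlap, but the 0 of unimmunized mouse 1 allowed up to 33.03 CPM, above the 18.6 of immunized mouse 2. The log2 fold change was 4.76 with a standard error of 0.37 (edgeR adjusted p = 1.27e-08), carried by 70 CD169-high and 14 CD169-low cells. Il22ra2 was not particular to C1q macrophages. CD169-high cells outside the C1q gate held 157 and 146 CPM in unimmunized mice 1 and 2, and 134 and 140 in immunized mice 1 and 2. Folr2, a folate receptor of resident macrophages, rose by 3.37, Cd200, the ligand of an inhibitory myeloid receptor, by 3.59, and the cell cycle inhibitor gene Cdkn2a by 3.32 (edgeR adjusted p = 4.05e-05, 3.55e-08 and 7.25e-05).

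Selenop, the selenium carrier protein, was 1810.4 and 506 CPM in unimmunized mouse 1, 693 and 489 in unimmunized mouse 2, 1105 and 310.3 in immunized mouse 1, and 269 and 169 in immunized mouse 2. It rose by 1.40 with a standard error of 0.20 (edgeR adjusted p = 0.000116), with a UMI in 368 of 417 CD169-high and 677 of 997 CD169-low cells. Lgals1, the lectin galectin-1, was 602 and 154 CPM in unimmunized mouse 1, 544 and 97.9 in unimmunized mouse 2, 518 and 134 in immunized mouse 1, and 239 and 114 in immunized mouse 2, without overlap, and rose by 1.56 (edgeR adjusted p = 1.02e-05).

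H2-Eb1, a chain of the MHC class II molecule that presents antigen, was 5351 CPM in CD169-high and 14829 in CD169-low cells of unimmunized mouse 1, 8564 and 15515 in unimmunized mouse 2, 8062 and 13641 in immunized mouse 1, and 11025 and 11267 in immunized mouse 2. The classes did not overlap, although they were close in immunized mouse 2. H2-Eb1 fell by 0.75 on the log2 scale with a standard error of 0.18 (edgeR adjusted p = 0.0428), but it lost the call in 16 of the 23 alternatives tried, among them the fit without unimmunized mouse 1 (-0.41). Of 12 class II genes tested, 1 fell and none rose, and at an unadjusted p under 0.05 there were 9 lower, beside 1.80% of all genes, and 1 higher, H2-Ob at 1.02. Their median log2 fold change was -0.44. The invariant chain Cd74 and the class II chains H2-Ab1 and H2-Aa had -0.61, -0.58 and -0.49 with adjusted p of 0.066, 0.103 and 0.247 in the same edgeR fit. None of 16 MHC class I genes was called by edgeR, also at an unadjusted p under 0.05, and their median was -0.03.

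The other 3 falls were S100a4, Tmem176a and AY036118. S100a4, a calcium-binding protein of monocytes and motile cells, was 992 and 2532 CPM in unimmunized mouse 1, 1672 and 2300.3 in unimmunized mouse 2, 1229.6 and 1905 in immunized mouse 1, and 845 and 1183 in immunized mouse 2. It was lower in the CD169-high cells of each mouse and fell by 0.80 with a standard error of 0.16 (edgeR adjusted p = 0.00739). Tmem176a, an intracellular channel-like gene of myeloid cells, fell by 0.86, from 2037 to 638 CPM in unimmunized mouse 1, from 1683 to 928 in immunized mouse 1 and from 827 to 734 in immunized mouse 2 (edgeR adjusted p = 0.0217). AY036118, a non-coding locus rich in ribosomal RNA sequence, fell by 0.95 (edgeR adjusted p = 0.00739). The call was lost in 8 of the 23 alternatives for S100a4, in 14 for Tmem176a and in 9 for AY036118, and in the fit without unimmunized mouse 1 for each of them.

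The lists for other macrophage states were read beside all genes tested, of which 0.955% rose and 0.0455% fell. Of 14 tingible body macrophage genes tested, 2 rose, the chemokines Pf4 and Ccl7 described above, none fell, and the median was 0.36. At an unadjusted p under 0.05, 3 of them were higher and 2 lower, Tmem37 at -0.95 and Cx3cr1 at -0.45. Of all genes tested 4.23% were higher and 1.80% lower at that limit. Of 24 genes for recognising and engulfing apoptotic cells, Timd4 alone was called, and the median was -0.02. None of 34 type I interferon response genes was called by edgeR (1 higher and 1 lower at an unadjusted p under 0.05), and 1 of 18 interferon-gamma induced genes rose, the guanylate-binding protein gene Gbp2b, by 1.67 (edgeR adjusted p = 0.00115). Gbp2b was 73.2 and 0 CPM in unimmunized mouse 1, 98.7 and 11.2 in immunized mouse 1 and 108 and 57.1 in immunized mouse 2. Among 14 Siglec and inhibitory receptor genes, Cd33, another Siglec, rose by 1.32 (edgeR adjusted p = 0.00284), and Siglec1 itself belongs to this list.

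Single rises stood in the lists of nonclassical monocytes (Pglyrp1, 8 genes tested), dendritic cells (Cd209a, 11), inflammatory effectors (Il1a, 15) and iron handling (Ncoa4, 13), with no fall in any of them. At an unadjusted p under 0.05 these lists held 2, 4, 3 and 5 genes higher, and 2 inflammatory effectors lower. No gene was called among 31 lysosome, 19 lipid handling, 21 myeloid transcription factor, 8 chemokine receptor, 12 RANK, lymphotoxin and CSF1, 7 Fc receptor, 12 Toll-like receptor, 19 immediate early and heat shock, 16 glycolysis, 3 nuclear-retained RNA and 16 sialic acid genes tested. At an unadjusted p under 0.05 these 11 lists held from 0 to 5 genes higher and from 0 to 3 lower. The most were 5 of 21 myeloid transcription factors higher and 3 of 8 chemokine receptors lower. Of all genes tested 4.23% were higher and 1.80% lower at that limit.

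Transcripts of other cell types moved with the CD169 class. Of 15 natural killer and cytotoxic genes 8 were tested and 6 rose, beside 0.955% of all genes tested. This count is a description, because the filter could pass genes through their CD169-high libraries alone. Nkg7, Ncr1 and Prf1, for example, lay between 0 and 1.65 CPM in the CD169-low libraries of the fitted mice. Gzma, which encodes the protease granzyme A of cytotoxic lymphocytes, was 178 and 22.02 CPM in unimmunized mouse 1, 557 and 0 in unimmunized mouse 2, 154 and 4.96 in immunized mouse 1, and 178 and 3.85 in immunized mouse 2. It did not overlap between the classes and had the largest fold change of the named genes, 5.26 with a standard error of 0.24 (edgeR adjusted p = 1.78e-12). Yet the share of cells with a Gzma UMI was 6.47% of CD169-high and 5.72% of CD169-low cells, and 3 cells held 75.8% of the Gzma UMIs of the CD169-high cells, 1 of them with 419. Nkg7, Ncr1 and Prf1, further genes of cytotoxic cells, rose by 4.72, 4.18 and 4.94 (edgeR adjusted p = 5.59e-10, 2.4e-05 and 8.53e-06), with 57.5%, 52.2% and 82.1% of their UMIs in 3 cells.

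**Figure D4:**
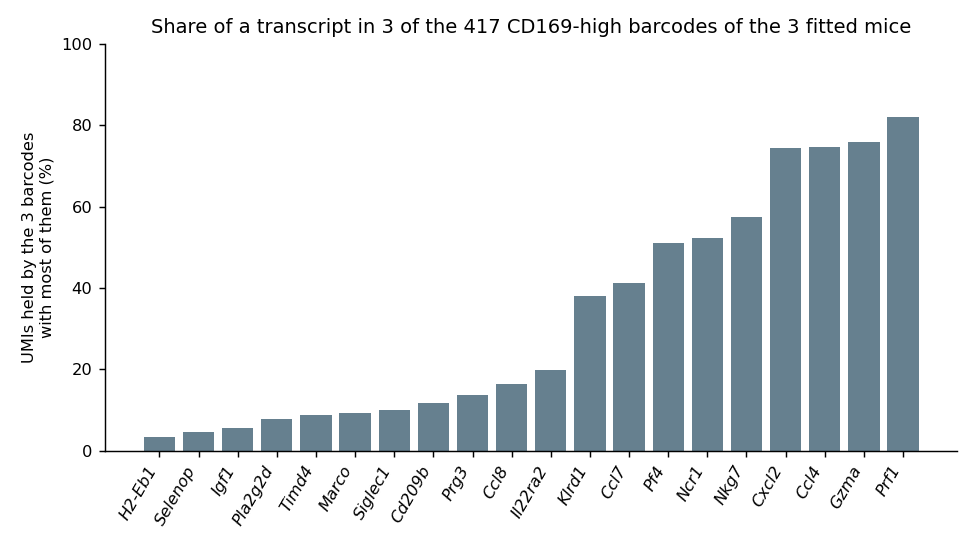
Percent of the UMIs of each gene (horizontal axis) in the 417 CD169-high cells of the fitted mice that came from the 3 cells with the most UMIs of that gene. Pooled over the fitted mice, the natural killer genes Prf1 and Gzma reach 82.1% and 75.8%, against 11.8% for Cd209b and 16.4% for Ccl8. In immunized mouse 2 alone, 3 cells held 81.8% of the Cd209b UMIs, 79.4% of Ccl8 and 98.6% of Gzma.

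Of the 442 CD169-high barcodes, 15 (3.39%) held at least 3 UMIs over Gzma, Nkg7, Ncr1, Klrd1, Klre1 and Prf1, and together 1603 of the 1655 UMIs of these 6 genes in CD169-high cells. Among CD169-low barcodes there were 2 of 1001. The 15 had a median of 20720 UMIs, against 11104 in all CD169-high cells, a median CD169 count of 70, and a sinus gene UMI in 11. Leaving these barcodes out left 67 calls, 64 higher and 3 lower, all of them among the 88. Of the 21 genes lost, 13 were then too low to test. The sinus list kept 4 rises, Siglec1 stayed at 0.26, and H2-Eb1 had -0.72 and was no longer called. The natural killer list kept 2 tested genes, neither of them called. Its loss of calls was fixed in advance, since its own genes chose the barcodes left out.

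Single genes of the B cell and T cell lists rose too, in cells chosen to hold no Cd3e or Cd79a UMI. The B and plasma cell list rose in 2 of 6 genes tested, with Igkc, an immunoglobulin light chain, at 328 and 22.02 CPM in unimmunized mouse 1, 257 and 69.8 in immunized mouse 1 and 75.6 and 38.9 in immunized mouse 2, a log2 fold change of 1.55 (edgeR adjusted p = 0.00012). Ighm rose by 1.18, whereas Cd79b of the same list had -0.45 and was not called. An Igkc UMI was held by 57.8% of CD169-high and 32.3% of CD169-low cells of the fitted mice. For Ighm these shares were 65.9% and 29.5%. Of the T cell and innate-like lymphocyte list 4 of 29 genes were tested and Il2rb alone was called, as a rise. Its UMIs lay in 16 CD169-high cells of the fitted mice, and 10 of these held 87.1% of them. Over the fitted mice the summed level of all B and plasma cell genes ranged from 304.1 to 977 CPM in CD169-high and from 255 to 352 in CD169-low cells, that of the T cell list from 82.9 to 290 and from 22.02 to 36.2, that of the natural killer list from 1102 to 2164 and from 341 to 2198, and that of neutrophil genes from 92.4 to 546 and from 66.1 to 124. Of 3 neutrophil genes and 1 endothelial or stromal gene tested edgeR called none (2 neutrophil genes higher at an unadjusted p under 0.05), and no erythroid or platelet gene could be tested. The share of cells with a UMI of any of 14 lymphoid genes ran from 22.6% to 40% in CD169-high libraries and from 30.2% to 100% in CD169-low libraries. Restricting both classes to cells with none of these 14 genes gave 84 rises and 12 falls, with Cd209b at 4.08, Marco at 3.93 and Ccl8 at 2.88, in a fit of the 2 immunized mice, since unimmunized mouse 1 then had fewer than 10 CD169-low cells.

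The other 5 antibodies were measured on the same cells. The mean CD68 antibody count per cell was 30.5 on CD169-high and 1.90 on CD169-low cells of unimmunized mouse 1, 16.4 and 2.75 in unimmunized mouse 2, 16.8 and 3.74 in immunized mouse 1, and 8.54 and 2.59 in immunized mouse 2. CD68, a lysosomal glycoprotein of macrophages, was thus higher in 4 of 4 mice without overlap of the classes, with a mean log2 ratio of 2.41 ± 0.92 (SD, n = 4, two-sided exact sign-flip p = 0.13, which is the lowest value possible with 4 mice, adjusted p = 0.208 over 5 antibodies). Its own transcript did not pass the test, at 271 and 319 CPM in unimmunized mouse 1, 351 and 318 in unimmunized mouse 2, 227 and 295 in immunized mouse 1, and 280.0 and 292 in immunized mouse 2, with a log2 fold change of -0.23 (edgeR adjusted p = 1.00).

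**Figure D5:**
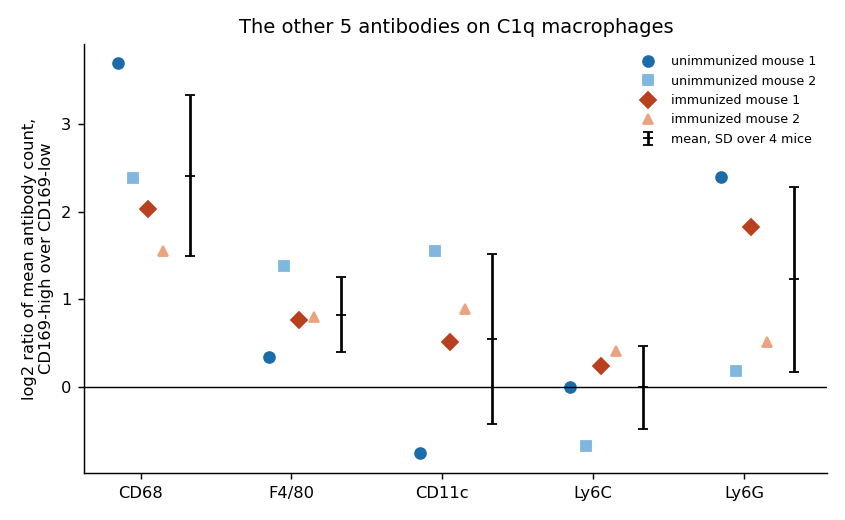
Log2 ratio of the mean antibody count per cell in CD169-high over CD169-low C1q macrophages (0.5 added to each mean) for CD68, F4/80, CD11c, Ly-6C and Ly-6G, with 1 point per mouse and the mean and SD over 4 mice. CD68 has the highest mean, 2.41, all 4 mice lie above 0 for CD68, F4/80 and Ly-6G, and Ly-6C lies around 0.

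F4/80, the product of Adgre1, was higher in 4 of 4 mice with a mean log2 ratio of 0.82 ± 0.43 (SD, exact sign-flip p = 0.13, adjusted p = 0.208), and Ly-6G, a neutrophil antigen, in 4 of 4 with 1.23 ± 1.05 (SD, exact sign-flip p = 0.13, adjusted p = 0.208). Mean Ly-6G counts were low, from 0.92 to 7.38 per CD169-high cell and from 0.75 to 1 per CD169-low cell, and its gene gave 1 UMI over all libraries. CD11c was higher in 3 of 4 mice (0.55 ± 0.97, exact sign-flip p = 0.375) and Ly-6C in 3 of 4 (-0.01 ± 0.48, exact sign-flip p = 1). On a centred log ratio, which scales each cell by its own 5 antibodies, the CD68 difference was 0.96, again in 4 of 4 mice, while F4/80, CD11c and Ly-6G came to -0.04, -0.14 and -0.06 and Ly-6C to -0.72. Of the transcripts, Adgre1 had 0.26, Itgax, which encodes CD11c, -0.28 and Ly6c2 -0.03, none of them called. The antibodies of a cell share its staining and capture.

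The design also allowed the CD169 classes to be compared between immunized and unimmunized mice. Within the 2 immunized mice 62 of 8800 genes rose (0.705%) and none fell. Unimmunized mouse 1 was the only unimmunized mouse in the fit, and no calls are given for it alone. The test of the difference between the effects called none of the 8800 genes (edgeR, 647 with an unadjusted p under 0.05), with 1 unimmunized mouse and 10 CD169-low cells on one side. In CD169-high cells alone, immunized against unimmunized mice gave 0 calls among 7832 genes (edgeR, 354 with an unadjusted p under 0.05). This fit also held the library of 25 CD169-high cells of unimmunized mouse 2. Cd209b, for example, had a log2 fold change of -2.48 with a standard error of 1.20 (edgeR adjusted p = 0.989).

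In CD169-low cells 4 of 9591 genes were higher in immunized mice (0.0417%), all measured against 1 library, the 10 cells of unimmunized mouse 1. The fit assumed that this library varies like the others, the condition and that mouse cannot be told apart, and with RLE normalization 1 gene was called. Cxcl9, an interferon-induced chemokine that attracts activated T cells, was 220 CPM there and 1598 and 1609.2 in immunized mice 1 and 2, a log2 fold change of 3.08 with a standard error of 0.31 (edgeR adjusted p = 0.0286). Ly6a was 55.0 against 828 and 1415 CPM, Ly6i 275 against 1273 and 1661, and Cfb, complement factor B, 44.0 against 598 and 452 (edgeR adjusted p = 0.0478 for each). The 4 CD169-low cells of unimmunized mouse 2, outside the fit, held 0, 661, 881 and 392 CPM of Cxcl9, Ly6a, Ly6i and Cfb.

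The same antibody limits were applied to the other kept cells, which gave 7646 cells outside the C1q gate. There the CD169-high and CD169-low cells differed at 1203 genes upwards (11.3%) and 983 downwards (9.19%) of 10693, against 59 (0.552%) and 2 (0.0187%) for C1q macrophages in the same fit, whose C1q libraries held 417 and 997 cells. The difference between the effects itself was called for 4 genes (0.0374%; 1193 with an unadjusted p under 0.05). For the lymphocyte genes Il7r, the interleukin 7 receptor, and Rora, a nuclear receptor of innate-like lymphocytes, the effect was 0.87 and -0.50 in C1q macrophages and 3.29 and 3.06 in the other cells. For the myeloid genes Clec4a3 and Gm5150 it was -0.19 and 0.05 in C1q macrophages and -1.55 and -1.46 in the other cells (edgeR adjusted p = 0.0496 for each of the 4 differences). No difference was called with a block by mouse and cell set or with RLE normalization. Cd209b, Marco, Ccl8, Gzma and Il22ra2 rose in both, with 3.16, 2.80, 3.14, 6.23 and 6.57 in the other cells. The difference was called for none of them.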

How the data were processed

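The study's 6 deposited libraries were the mRNA, antibody and hashtag libraries of 2 captures. The authors mapped the mRNA reads to an mm10 reference with Cell Ranger 4.0.0, merged the captures, and deposited raw UMI counts per gene and barcode for 32287 features, and they made antibody and hashtag counts with CITE-seq-count, all without normalization. Antibody and hashtag barcodes carry no capture ending, so the 1242 cells whose sequence occurs in both captures were left out, as were 1238 without antibody or hashtag data, 1425 with over 25% mitochondrial UMIs, and cells without 1 hashtag holding at least 80% and at least 10 of the hashtag counts. Mice and their condition were taken from the hashtag names in the labels. No doublet caller was run, so doublets within a mouse remained.

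UMI counts were summed per mouse and antibody class, libraries under 10 cells were dropped, and edgeR 4.0.16 (R 4.3.3) was fitted to the counts with TMM normalization, filterByExpr, the quasi-likelihood test and the mouse as a block. High and low cells with 1 hashtag come from 1 mouse, which is the pairing used. The standard error is the absolute log2 fold change over the square root of F. Adjusted p is Benjamini-Hochberg over all genes of a fit, with 0.05 as the threshold. The unimmunized against immunized fits had no block. Other values were tested over mice by exact sign-flip tests (Python 3.11.15), and the share of CD169-high cells is given without a test because the antibody count chose the cells. The script was tested on simulated data.

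Named were Siglec1, Tomato and cell type markers, and up to 12 genes with the largest rise and 12 with the largest fall. These 12 each way were called genes that reached a mean log2 CPM of 5 and moved alike in every fitted mouse. In the other comparisons up to 5 each way were named. The most abundant and up to 4 called members of each of 34 gene lists were named as well. The results of 1 list and of some named genes are not reported here. The cells, limits, lists and tests were chosen with earlier results of these data known. Of the 23 alternatives for the main comparison, 21 were planned and 2 (no minimum of cells, and leaving out barcodes with natural killer UMIs) were chosen after seeing the data, as was the block by mouse and cell set in the comparison with the other cells. The 4 mice are separate animals, and results from 3 or 4 of them hold only for these animals. The sign-flip p-values measure only the spread between these mice. The edgeR p-values do not measure that spread alone, since the variance of each gene was estimated partly from all genes. A very small edgeR p-value is therefore not evidence from many mice.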

Additional observations from a re-analysis of the deposited data

Results flagged for a closer look

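For Pf4 and Siglec1 both immunized mice lay on one side of 0 and unimmunized mouse 1 on the other. Pf4 had a CD169 effect of 1.78 on the log2 scale in the immunized mice and -2.17 in unimmunized mouse 1, whose CD169-low value of 44.0 CPM came from 10 cells. The edgeR test of that difference gave an adjusted p of 0.667, so it was not called. Unimmunized mouse 2, outside the fit, had 26.3 CPM of Pf4 in CD169-high and 73.4 in its 4 CD169-low cells. Siglec1 had 0.31 in the immunized mice and -0.40 in unimmunized mouse 1, a difference of 0.71 with a standard error of 0.75 and an adjusted p of 0.83 by edgeR. Unimmunized mouse 2 had 26.3 and 0 CPM of Siglec1, but the 0 of its 4 CD169-low cells allowed up to 73.4 CPM. It therefore lay on neither side.

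The CD169 effect in C1q macrophages minus that in the other kept cells passed the edgeR threshold for 4 genes, by 1.51 for Gm5150, 1.36 for Clec4a3, -3.55 for Rora and -2.43 for Il7r on the log2 scale. When the other cells were limited to those with Cd3e and Cd79a at 0, 1 gene was called, and with RLE normalization or a block by mouse and cell set none was. The rule used for this list flagged no single mouse as far from the others. Unimmunized mouse 1 still stood apart in depth, with a log2 ratio of median UMIs of -2.02. The ratio was -0.07 in unimmunized mouse 2, -0.35 in immunized mouse 1 and 0.23 in immunized mouse 2.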

How the results depend on the processing

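Under 13 of the 23 alternatives, 1 of which left out unimmunized mouse 2, not in the fit anyway, the main count of 88 calls stayed within 1.5 times, and in the other 10 it was 217 with no filter on low counts, 33 in capture 1, 226 with limits of at least 20 against at most 1 antibody counts, 38 with cells ranked by centred log ratio, 58 without cells holding a sinus gene UMI, 24 after thinning to 2000 UMIs, 56 at 95% hashtag purity, and from 47 to 165 when 1 mouse was left out (47 without immunized mouse 1, 165 without immunized mouse 2). In 9 alternatives unimmunized mouse 1 also fell below 10 CD169-low cells, so that the 2 immunized mice were fitted alone: each capture, limits of 20 and 1, C1q of at least 20 UMIs, no UMI of the 14 lymphoid genes, thinning, leaving out the 10% of cells with most UMIs, the 10% mitochondrial limit and 95% hashtag purity. Without the replicate block, which ignores the pairing by mouse, 16 genes were called, with 0 of the sinus list and 6 of the natural killer list. The values for capture 2 and several smaller alternatives, such as 66 rises and 2 falls by DESeq2, came to between 64 and 107 calls. For single genes 1342 values kept direction and call, 372 kept direction and lost the call, and 10 reversed. The reversed values were 0.12 (DESeq2), 0.071 (without the 10% of cells with most UMIs) and 0.010 (without natural killer barcodes) for Tomato, -0.20 (capture 2), -1.22 (ranked by centred log ratio), -0.12 (14 lymphoid genes at 0) and -0.078 (without the 10%) for Ccl4, and -0.26, -0.24 and -0.21 (14 lymphoid genes, without the 10%, without natural killer barcodes) for Ms4a4b.

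The immunized against unimmunized difference of the effect rose from 0 to 30 calls with no filter and 26 with no minimum of cells. In CD169-high cells it was 124 with no filter, 1 with the 14 lymphoid genes at 0 and from 2 to 186 with 1 mouse left out. In CD169-low cells it was 1 with RLE, 153 with no filter and 21 with no minimum, and no fit was possible without a mouse other than unimmunized mouse 2. The comparison with the other cells gave 0 with RLE, without the replicate block or with a block by mouse and cell set, 437 with no filter, 58 with the 14 lymphoid genes at 0, 1 with Cd3e and Cd79a at 0 in the other cells, and from 0 to 11 with 1 mouse left out. Among antibodies, the centred log ratio reversed F4/80 (-0.043), CD11c (-0.14) and Ly-6G (-0.059), and Ly-6C turned to 0.10 at limits of 20 and 1, 0.029 at 10 against under 10, 0.11 with the 14 lymphoid genes at 0 and 0.22 without unimmunized mouse 2. The cause of these shifts was not tested. The CD169-low libraries of unimmunized mice 1 and 2 held the fewest cells, 10 and 4.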

Other observations

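In unimmunized mouse 1 the CD169-high library combined the highest sinus gene level of any library, a summed 3756 CPM over the 14 listed genes, with the lowest depth, 2423 UMIs per cell. The apolipoprotein gene Apoc1, the ectoenzyme gene Enpp1 and the fatty acid binding protein gene Fabp1 were called as well, with log2 fold changes of 2.14, 3.57 and 3.76 over the fitted mice (edgeR adjusted p = 0.0226, 4.98e-07 and 7.25e-05). These 3 genes were picked after their values were seen.

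Cxcl13, the B cell attracting chemokine of follicles, was too rare to test and was found in 34 CD169-high and 11 CD169-low cells of the fitted mice. Its levels were 23.04 and 0 CPM in unimmunized mouse 1, 13.2 and 0 in unimmunized mouse 2, 18.1 and 2.89 in immunized mouse 1, and 2.19 and 0.537 in immunized mouse 2. CD169-high cells were thus higher in both immunized mice. The 0 of unimmunized mice 1 and 2 allowed up to 33.03 and 73.4 CPM, above their CD169-high values, and gave no direction.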
